A study of Mus musculus with 2 samples.

Results

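Fabp1, Fabp2, Fabp5, Fabp6, Rbp2, Rbp4 and Rbp7, the fatty acid and retinol binding protein genes described here, were taken by symbol, and 7 of 7 were found among the 31053 genes measured. They were read in single-cell RNA sequencing of isolated colonic crypt cells from C57BL/6 mice aged 4 weeks. The Mettl14_cKO library came from M14(f/f);Villin-Cre mice, which carry floxed alleles written as M14 and read here as Mettl14, together with Cre recombinase driven by the Villin promoter in gut epithelium. The control library came from M14(f/f) mice without Cre. Both groups thus carried the floxed alleles. Each genotype was a single library made from a pool of 3 mice. No test was therefore possible, and genotype cannot be told apart from animal, library or sex. Every interval below is a 95% interval for counting error only.

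Fatty acid binding proteins are small cytosolic proteins that hold long-chain fatty acids or bile acids in a closed barrel and carry them between membranes and enzymes. Rbp2 and Rbp7 are cellular retinol binding proteins of the same structural family, whereas Rbp4 is a secreted protein of another family, the lipocalins, that carries retinol in plasma. In textbook descriptions Fabp1 (the liver type), Fabp6 (the ileal bile acid binding protein) and Rbp2 (which holds retinol while enterocytes esterify it) belong to absorptive cells of the small intestine. Fabp2 (the intestinal type) and Fabp5 (the epidermal type) were put here with Rbp4 and Rbp7 as genes of the colon or of several tissues.

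The promoter windows of Rbp2, Fabp6 and Fabp2 are shown because Rbp2 and Fabp6 had the highest ratios of the 7 genes in absorptive cells, while Fabp2 lay between the 2-fold limits there. Each runs from 250 bases before to 50 bases after the start given by RefSeq (GRCm38.p6), on the strand of the gene. Capitals mark matches to a core of the HNF4 site (CAAAGNNCA), a GATA site (AGATAA) or a CDX site (CAATAAA) on either strand, or a TATA box (TATAAA) on the strand of the gene.
Rbp2, chr9:98490287-98490586, plus strand: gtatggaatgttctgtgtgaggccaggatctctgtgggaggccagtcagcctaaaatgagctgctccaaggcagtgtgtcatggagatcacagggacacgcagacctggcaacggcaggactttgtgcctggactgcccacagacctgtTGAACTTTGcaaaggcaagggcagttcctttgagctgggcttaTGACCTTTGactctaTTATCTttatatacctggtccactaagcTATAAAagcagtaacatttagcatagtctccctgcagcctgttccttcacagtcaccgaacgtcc
Fabp6, chr11:43601513-43601812, minus strand: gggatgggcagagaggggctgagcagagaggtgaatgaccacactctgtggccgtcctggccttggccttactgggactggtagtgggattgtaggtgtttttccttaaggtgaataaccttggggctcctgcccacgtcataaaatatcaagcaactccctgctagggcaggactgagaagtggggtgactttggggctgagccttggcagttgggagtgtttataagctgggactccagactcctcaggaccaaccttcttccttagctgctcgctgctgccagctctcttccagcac
Fabp2, chr3:122894822-122895121, plus strand: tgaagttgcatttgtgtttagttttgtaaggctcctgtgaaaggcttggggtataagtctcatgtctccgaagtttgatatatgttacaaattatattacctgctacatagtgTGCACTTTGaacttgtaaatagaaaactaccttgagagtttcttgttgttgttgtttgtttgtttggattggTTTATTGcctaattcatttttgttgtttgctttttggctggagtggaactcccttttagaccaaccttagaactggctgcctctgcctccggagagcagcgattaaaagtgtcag
The Rbp2 window held 2 matches to the HNF4 core, 1 to the GATA site and 1 to the TATA box, none of them overlapping. The Fabp2 window held 1 HNF4 and 1 CDX match, and the Fabp6 window held none of the 4. Of 32851 windows of this length, 6.36% held the HNF4 core, 11.2% the GATA site, 4.6% the CDX site and 8.32% the TATA box. Of the members, 6 of 7 had an entry in that table. Fabp5 was named only. The letters are a description of these windows and say nothing on binding.

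The Mettl14_cKO library held 9225 barcodes and 89729527 UMIs, and the control library 10181 barcodes and 111239295 UMIs. The filters left 7073 Mettl14_cKO and 9078 control cells, 6051 and 8697 of them epithelial-like, and 15 barcodes occurred in both sets. Mettl14 itself had 5.05 CPM (CPM is the UMIs of a gene relative to all UMIs of the cells summed, scaled the usual way) in epithelial-like cells of the Mettl14_cKO library and 4.78 CPM in those of the control; the 2 levels did not differ beyond counting error. Which exons the floxed alleles remove is not stated, so a 3' tag need not report the deletion, and the libraries are called here by their labels. Classes were named from clusters by fixed markers, and the 7 genes were left out of the variable genes used for clustering. Most clusters were nearly specific to 1 library: colonocyte-like cells lay mainly in cluster 17 in the Mettl14_cKO library and in 5 and 9 in the control, cycling-like cells in 2 and 10 against 1, 6 and 7, and goblet-like cells in 3, 4 and 18 against 0, 8, 15 and 16. Enteroendocrine-like cells shared clusters 14 and 25. A class compared between genotypes therefore compares different clusters, except for the enteroendocrine-like class and for tuft-like cells, which were all in cluster 26. T or NK-like cells, used below for comparison, were 217 in cluster 21 and 177 in cluster 13 in the Mettl14_cKO library. In the control 362 of 366 were in cluster 13. The epithelial gene Epcam had 190.8 CPM in cluster 21 and 648.8 CPM in cluster 13, so the T or NK-like levels of the libraries come from unlike mixes of cells. Xist, transcribed from the silenced X of females, had 310.5 CPM in epithelial-like cells of the Mettl14_cKO library and 0.0649 CPM in those of the control.

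**Figure D1:**
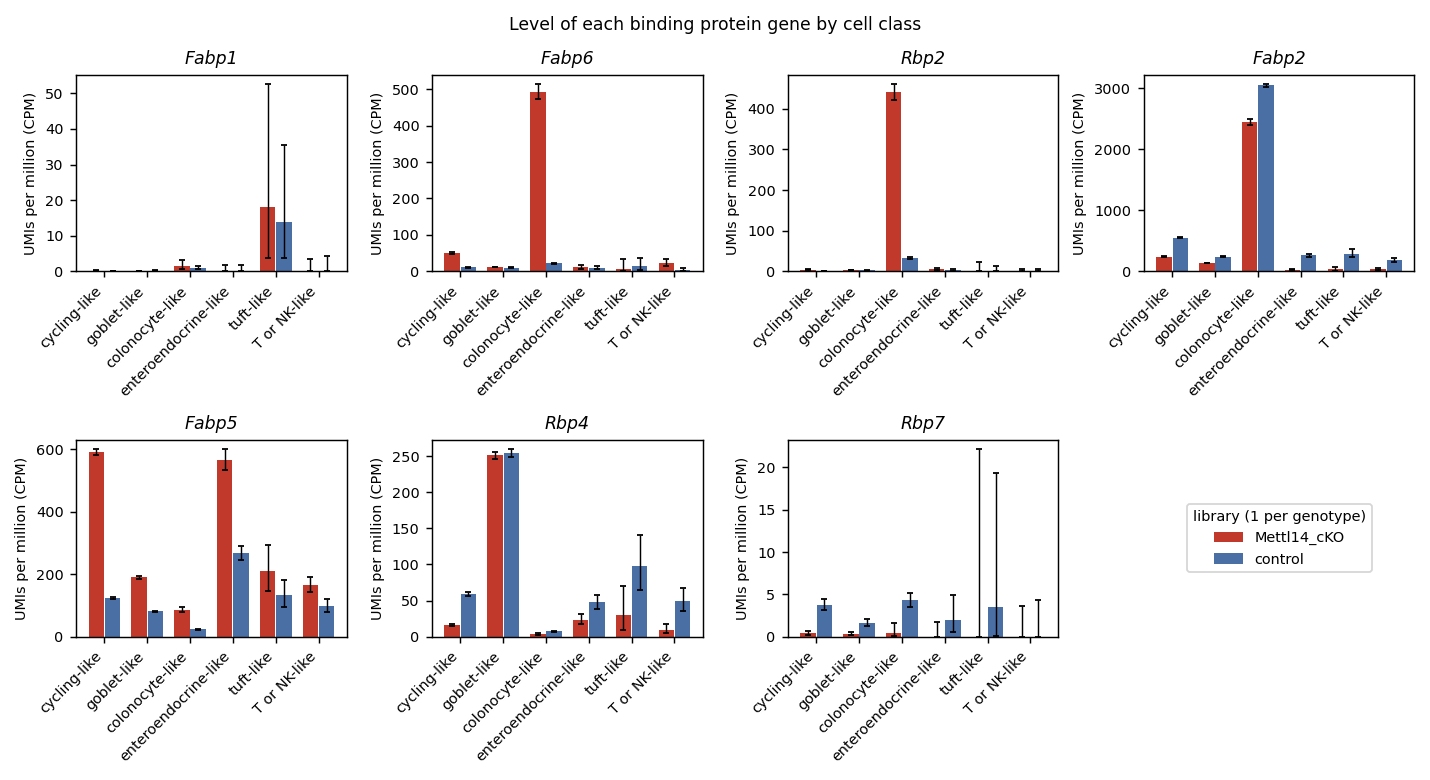
Level of each gene in CPM by cell class, with the Mettl14_cKO library at the left of each pair and the control at the right, 1 library each; bars are summed UMIs and whiskers exact Poisson intervals. Fabp6 and Rbp2 are high in Mettl14_cKO colonocyte-like cells at 493 and 441 CPM, and Rbp4 in goblet-like cells of both libraries at 251 and 254 CPM.

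Rbp2, whose protein holds retinol in the cytosol, was 13.4-fold higher (12.4 to 14.6) in colonocyte-like cells of the Mettl14_cKO library. It had 1917 UMIs in 350 cells there, or 441 CPM (422 to 461), against 838 UMIs in 1781 control cells, or 32.8 CPM (30.6 to 35.1). It was a gene of absorptive cells in both libraries, at 103-fold (86.1 to 125) the level of cycling-like cells in the Mettl14_cKO library and 69.8-fold (43.3 to 120) in the control. In the 2 clusters with at least 5 colonocyte markers among their 10 leading genes, 17 and 9, chosen after the data were seen, Rbp2 had 502 (Mettl14_cKO) and 78.8 CPM (control), 6.37-fold higher (5.86 to 6.93). The other colonocyte-like cluster, 5, held 2.97 CPM in 983 of the 1781 control cells of the class.

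The higher Rbp2 level was spread over many cells. At least 1 Rbp2 UMI was found in 253 of 350 Mettl14_cKO colonocyte-like cells (72.3%) and in 344 of 1781 control ones (19.3%). With each cell thinned to 1700 UMIs the shares were 47.3% in the Mettl14_cKO library (41.9 to 52.8, 334 cells) and 7.65% in the control (6.43 to 9.01, 1713 cells), at unthinned median depths of 9258 (Mettl14_cKO) and 11502 (control) UMIs. Rbp2 was absent from the thinned T or NK-like cells, with 0 of 250 in the Mettl14_cKO library and 0 of 178 in the control, so a limit of 3 cells allows a share of up to 1.2% in the Mettl14_cKO library and 1.69% in the control. Among goblet-like cells Rbp2 had 2.71 (Mettl14_cKO) and 2.46 CPM (control), a ratio of 1.10 (0.816 to 1.49). Cycling-like cells held 125 Rbp2 UMIs (4.28 CPM) in the Mettl14_cKO library and 17 (0.470 CPM) in the control, in 0.721% (Mettl14_cKO) and 0.0393% (control) of thinned cells, shares that those limits do not separate from background. The 41 Mettl14_cKO cells that fell in colonocyte-like clusters made up mostly of control cells had 79.1 CPM, against 32.8 CPM for the control cells there (2.41-fold, 1.78 to 3.21). Of the 50 Rbp2 UMIs in those Mettl14_cKO cells, 45 were in the 7 cells of cluster 9 (474 CPM) and 5 in the 34 cells of cluster 5 (9.30 CPM). Those Mettl14_cKO cells were grouped by likeness to control cells over the genes used for clustering.

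Fabp6, which binds bile acids in the cytosol, was 22.2-fold higher (20.2 to 24.4) in colonocyte-like cells of the Mettl14_cKO library, but most of its UMIs came from a few cells. The Mettl14_cKO cells held 2143 Fabp6 UMIs (493 CPM, 472 to 515), against 567 (22.2 CPM, 20.4 to 24.1) in the control cells. In clusters 17 and 9 it had 559 (Mettl14_cKO) and 6.17 CPM (control). A Fabp6 UMI was found in 71 of 350 Mettl14_cKO cells and in 185 of 1781 control cells. The 3 Mettl14_cKO cells with the most held 881, 248 and 127 Fabp6 UMIs among 21961, 8720 and 24403 UMIs of the cell, and together 58.6% of all Fabp6 UMIs of the class. In the control the highest 3 cells held 44, 30 and 29. Without the 1% of cells with the most Fabp6 UMIs in each library, 3 Mettl14_cKO and 17 control cells, the levels were 207 (Mettl14_cKO) and 11.7 CPM (control), a log2 ratio of 4.03 against 4.41 with all cells. That comparison was added after the data were seen. With each library clustered by itself, a Mettl14_cKO cluster of 195 cells was led by Fabp6 and Dmbt1. It met no marker rule and lay outside the colonocyte-like class, so the class in which Fabp6 is counted depends on the clustering.

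At 1700 UMIs per cell, 11.1% of Mettl14_cKO colonocyte-like cells (7.92 to 14.95) and 2.10% of control ones (1.48 to 2.90) had a Fabp6 UMI, against 20.3% (Mettl14_cKO) and 10.4% (control) unthinned. T or NK-like cells had 2% (Mettl14_cKO) and 0.562% (control), from 5 Mettl14_cKO and 1 control cells with median depths of 1939.5 and 1650.5 UMIs, so the control share was not separable from that background. By level, control colonocyte-like cells had 6.27 times (2.13 to 30.5) the Fabp6 of T or NK-like cells, where 3 UMIs were found. Rbp2 was found in 21 of 37 thinned Mettl14_cKO cells with Fabp6 (56.8%, 39.5 to 72.9) and in 137 of 297 without it (46.1%, 40.4 to 52.0), intervals that overlap. A tie between Fabp6 and Rbp2 in single cells was not detectable at this depth. The 41 Mettl14_cKO cells in control-majority clusters had 23.7 CPM of Fabp6, from 15 UMIs, against 22.2 CPM in control cells (1.07-fold, 0.595 to 1.78). Cycling-like cells had 49.5 (Mettl14_cKO) and 11.4 CPM (control) of Fabp6 (4.32-fold, 3.87 to 4.83), against 22.4 (Mettl14_cKO) and 3.54 CPM (control) in T or NK-like cells, and again 57.1% of the Mettl14_cKO UMIs lay in the highest 1% of cells; without those cells the levels were 21.4 (Mettl14_cKO) and 9.12 CPM (control). The Mettl14_cKO cluster 2, with mitotic genes such as Birc5 and Cdk1 in the lead, held 58.7 CPM and cluster 10 held 17.4. Goblet-like cells had 11.7 (Mettl14_cKO) and 9.73 CPM (control) and enteroendocrine-like cells 11.01 (Mettl14_cKO) and 9.22 CPM (control).

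**Figure D2:**
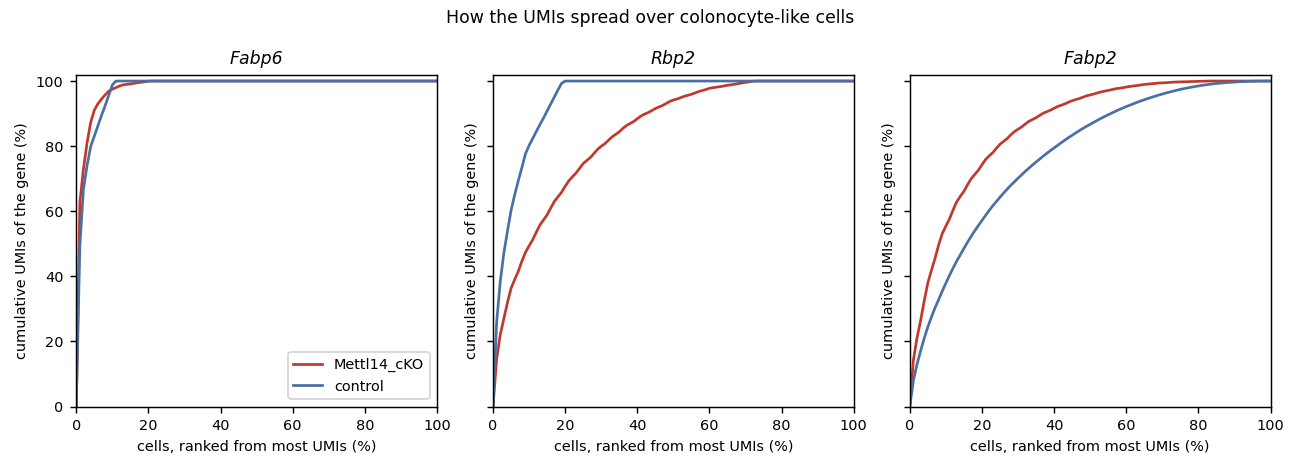
Cumulative share of the UMIs of Fabp6, Rbp2 and Fabp2 (vertical axis, percent) over colonocyte-like cells ranked from the most UMIs down (horizontal axis, percent), 1 line per library. In the Mettl14_cKO library the first 10% of cells held 97.5% of Fabp6 UMIs but 49.4% of Rbp2 UMIs; in the control they held 98.8% and 80.2%.

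Fabp1, the liver-type fatty acid binding protein, was almost absent from the crypt cells. All epithelial-like cells together held 13 UMIs in the Mettl14_cKO library and 36 in the control, 0.158 (Mettl14_cKO) and 0.334 CPM (control). Colonocyte-like cells had 7 of them in the Mettl14_cKO library and 27 in the control, of which 20 were in a single cell. Per UMI sequenced it was highest in tuft-like cells, chemosensory cells of the epithelium, with 3 UMIs in 43 Mettl14_cKO cells and 4 in 50 control cells. These were 18.0 CPM (3.72 to 52.7) in Mettl14_cKO and 13.9 CPM (3.79 to 35.6) in control cells, which do not differ beyond counting error.

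Of the other textbook small-intestinal genes, none with at least 50 CPM was 2-fold higher in colonocyte-like cells of the Mettl14_cKO library. Of 19 small-intestinal markers 2 had at least 50 CPM in a library, the antimicrobial lectins Reg3b (8058 CPM in Mettl14_cKO, 5428 CPM in control) and Reg3g (1883 CPM in Mettl14_cKO, 1927 CPM in control), both between the 2-fold limits. Both lectin genes were over 2-fold higher in cycling-like and goblet-like cells, Reg3b with 4067 CPM in Mettl14_cKO and 882 CPM in control cycling-like cells, and 1052 CPM in Mettl14_cKO and 137 CPM in control goblet-like cells. In enteroendocrine-like cells 2 of 3 of these markers with at least 50 CPM were lower, Reg3b among them with 237 CPM in Mettl14_cKO and 701 CPM in control cells. The lactase gene Lct had 0 UMIs in both libraries. Apoa1 and Apoa4, apolipoproteins of chylomicrons, had 2.99 and 1.38 CPM in the Mettl14_cKO library, against 0.235 and 0 CPM in the control. Slc10a2, the ileal bile acid transporter, had 21.9 (Mettl14_cKO) and 47.0 CPM (control), and Fgf15, a hormone that ileal cells release on bile acid uptake, had 1 UMI in Mettl14_cKO and 2 in control cells. Gata4, a transcription factor of the proximal small intestine, had 1 UMI in Mettl14_cKO and 4 in control cells. Summed, Fabp1, Fabp6 and Rbp2 had 936 CPM (907 to 965) in Mettl14_cKO colonocyte-like cells and 56.1 CPM (53.2 to 59.1) in the control. The other 4 members had 2532 CPM (2484 to 2579) in Mettl14_cKO and 3083 CPM (3061 to 3104) in control cells. Fabp2 alone made 2442 (Mettl14_cKO) and 3048 CPM (control) of that sum. The contrast between the sums therefore depends on the group in which Fabp2, the intestinal type, was placed. In goblet-like cells the sum of the first 3 was 14.4 (Mettl14_cKO) and 12.3 CPM (control).

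Hoxb13, a transcription factor gene of the distal colon, also differed. It had 89.1 CPM in colonocyte-like cells of the Mettl14_cKO library and 16.1 CPM in those of the control, and its part in the Rbp2 and Fabp6 ratios was not tested. The control held a cluster with far more Hoxb13, the unnamed epithelial cluster 12 (542 cells, led by Tgm3, Ggh and Cyp2c68), with 439 CPM. There Rbp2 had 21.4 CPM and Fabp6 28.6 CPM. Cluster 12 met no marker rule, so these levels are not compared with those of colonocyte-like cells. The summed 8 myeloid markers also differed, at 382.5 (Mettl14_cKO) and 5.05 CPM (control) in colonocyte-like cells, and all but 1 of the 8 were under 25 CPM in the Mettl14_cKO library. S100a8 made up 354 CPM of that sum and 0.0392 CPM in the control, while the macrophage genes Lyz2, C1qa and Csf1r had 0.690, 0.460 and 1.15 CPM in the Mettl14_cKO cells. Markers of T or NK cells summed to 2.76 (Mettl14_cKO) and 19.4 CPM (control), with Cd3g, Nkg7 and Ccl5 at 0 in the Mettl14_cKO cells.

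Fabp2, the intestinal fatty acid binding protein, had a lower level in the Mettl14_cKO library in colonocyte-like cells. Its level was also lower in goblet-like cells and, past 2-fold, in cycling-like cells, but so was its T or NK-like level. That level was 34.1 CPM in Mettl14_cKO and 189 CPM in control cells, and the ratios below are not corrected for it. Its level over all epithelial-like cells was 297 CPM in the Mettl14_cKO library and 1023 CPM in the control (3.45-fold lower, 3.40 to 3.50), a ratio that includes the smaller share of colonocyte-like cells, 5.78% against 20.5% of epithelial-like cells. Within colonocyte-like cells it had 2442 CPM (2395 to 2488) in the Mettl14_cKO library and 3048 CPM (3027 to 3070) in the control, a ratio of 0.801 (0.785 to 0.817). In clusters 17 and 9 alone it had 2631 (Mettl14_cKO) and 4724 CPM (control), a ratio of 0.557 (0.545 to 0.569). The ratio within the class was under 1 in 15 of 15 other settings, with log2 values of -1.38 to -0.13.

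Fewer colonocyte-like cells of the Mettl14_cKO library carried Fabp2. Its thinned share was 69.5% (64.2 to 74.4) in the Mettl14_cKO library and 93.2% (91.9 to 94.3) in the control (unthinned 82.9% in Mettl14_cKO and 97.7% in control cells), and the medians were 10.7 (Mettl14_cKO) and 21.7 (control) Fabp2 UMIs per 10000 UMIs of a cell. The 90th percentiles were 70.4 in Mettl14_cKO and 66.1 in control cells, the maxima 304 in Mettl14_cKO and 369 in control cells. The 10th percentiles were 0 in Mettl14_cKO and 7.54 in control cells. Among thinned Mettl14_cKO cells, Rbp2 was found in 50.9% of those with Fabp2 (44.2 to 57.5) and in 39.2% of those without it (29.7 to 49.4).

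Outside the absorptive class, cycling-like cells held 238 CPM of Fabp2 in the Mettl14_cKO library, against 553 CPM in the control (2.32-fold lower, 2.26 to 2.39). Goblet-like cells held 135 CPM in Mettl14_cKO, against 240 CPM in control (1.78-fold lower, 1.72 to 1.84). Enteroendocrine-like cells held 23.5 CPM in Mettl14_cKO, against 264 CPM in control (11.2-fold lower, 8.38 to 15.4). Fabp2 should be missing from T or NK-like cells, where it had 34.1 (Mettl14_cKO) and 189 CPM (control) and was found in 3.6% (1.66 to 6.72) of thinned Mettl14_cKO and 20.2% (14.6 to 26.9) of thinned control cells. Enteroendocrine-like cells had thinned shares of 1.25% in Mettl14_cKO and 25.4% (19.5 to 32.0) in control, at median depths of 3712 (Mettl14_cKO) and 5279 (control) UMIs. By share their Fabp2 was thus not separable from that of T or NK-like cells. By level the control enteroendocrine-like cells lay higher, at 264 CPM (242 to 287) against 189 CPM (161 to 221). Where the Fabp2 of T or NK-like cells came from was not tested, and the enteroendocrine-like ratio is not read as a difference in expression. The goblet-like share of 16.1% (14.6 to 17.7) in the Mettl14_cKO library lay above its T or NK-like share, and that of 26.2% (24.6 to 27.9) in the control lay close to its own. Those of cycling-like cells, 23.9% (Mettl14_cKO) and 50.04% (control), lay above the T or NK-like shares in both libraries. By level goblet-like cells lay above T or NK-like cells in both libraries, at 135 against 34.1 CPM in Mettl14_cKO. In the control they had 240 CPM (236 to 246) against 189 CPM (161 to 221). The goblet-like ratio is not corrected for these levels and is not read as a difference in expression. The unthinned shares were 6.72% (Mettl14_cKO) and 49.3% (control) in enteroendocrine-like, 51.1% (Mettl14_cKO) and 69.8% (control) in goblet-like and 62.7% (Mettl14_cKO) and 77.8% (control) in cycling-like cells. In the Mettl14_cKO cells of control-majority cycling-like clusters, 162 cells, Fabp2 had 462 CPM, against 556 CPM in control cells.

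**Figure D3:**
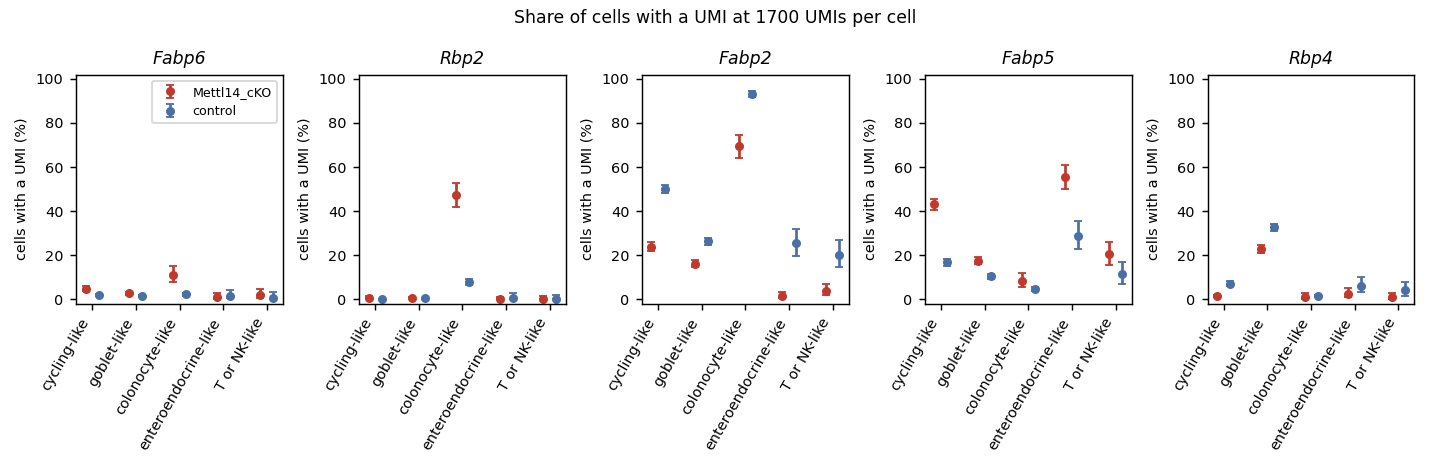
Share of cells with at least 1 UMI of 5 of the genes after thinning to 1700 UMIs per cell, by class, Mettl14_cKO at the left and control at the right of each pair, 1 library each, with exact binomial intervals. T or NK-like cells are shown for comparison: their share was 3.6% (Mettl14_cKO) and 20.2% (control) for Fabp2, and 20.4% (Mettl14_cKO) and 11.2% (control) for Fabp5. Whether T or NK-like cells make Fabp5 themselves was not tested.

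Fabp5, the epidermal-type fatty acid binding protein, was at least 2-fold higher in the Mettl14_cKO library in the 4 classes compared, but in goblet-like and colonocyte-like cells it was found no more often than in T or NK-like cells. Cycling-like cells had 591 CPM (582 to 600) in the Mettl14_cKO library and 122 CPM (119 to 126) in the control, a 4.82-fold ratio (4.67 to 4.99). Its ratio was 2.36 (2.26 to 2.47) in goblet-like cells, from 190 (Mettl14_cKO) and 80.5 CPM (control). Colonocyte-like cells had 86.5 (Mettl14_cKO) and 23.03 CPM (control), 3.76-fold higher (3.29 to 4.28), and enteroendocrine-like cells 566 (Mettl14_cKO) and 267 CPM (control), 2.12-fold higher (1.92 to 2.35). In T or NK-like cells the level was 165 (Mettl14_cKO) and 98.0 CPM (control). The colonocyte-like ratio leaned on few cells: without the highest 3 Mettl14_cKO and 17 control cells the levels were 42.3 (Mettl14_cKO) and 19.6 CPM (control).

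At a common depth 43.0% of Mettl14_cKO cycling-like cells (40.6 to 45.5) and 16.7% of control ones (15.2 to 18.2) had a Fabp5 UMI, as had 55.5% of Mettl14_cKO (49.9 to 61.0) and 28.9% of control (22.7 to 35.7) enteroendocrine-like cells. Unthinned, these were 72.5% (Mettl14_cKO) and 46.0% (control), and 75.5% (Mettl14_cKO) and 51.6% (control). The T or NK-like shares were 20.4% in Mettl14_cKO (15.6 to 25.9) and 11.2% in control (7 to 16.8). The goblet-like shares of 17.3% (Mettl14_cKO) and 10.4% (control) and the colonocyte-like shares of 8.38% (Mettl14_cKO) and 4.50% (control) lay at or under them, so Fabp5 in these classes was not separable from that level, and their unthinned shares were 46.4% (Mettl14_cKO) and 34.4% (control), and 23.7% (Mettl14_cKO) and 20.3% (control). The control cycling-like interval also overlapped it. Whether T or NK-like cells make Fabp5 themselves was not tested, so their share need not be a background for epithelial-like cells. In cycling-like clusters made up mostly of control cells, the 162 Mettl14_cKO cells had 126 CPM and the control cells 123 CPM (1.02-fold, 0.925 to 1.12). The higher cycling-like level was thus in other clusters, with 698 CPM in cluster 2 and 257 CPM in cluster 10 of the Mettl14_cKO library.

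The 2 shared enteroendocrine-like clusters differed in Fabp5. In cluster 14, led by the enterochromaffin genes Chgb, Chga and Tph1, it had 600 CPM in 295 Mettl14_cKO cells and 131 CPM in 153 control cells (4.57-fold, 3.87 to 5.43). In cluster 25, led by the peptide hormone genes Pyy, Gcg and Cck, it had 503 (Mettl14_cKO) and 493 CPM (control), a ratio of 1.02 (0.883 to 1.18). The control level of cluster 14 was the low one of the 4.

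The highest Fabp5 level was in a cluster found in the Mettl14_cKO library alone. Cluster 20 held 225 Mettl14_cKO cells and 0 control cells, met no marker rule, and was led by the chemokine gene Ccl20, the injury-associated gene Clu, Fabp5 and Cldn10. Fabp5 had 21504 UMIs there, or 6804 CPM (6714 to 6896), with a median of 51.1 UMIs per 10000 and a thinned share of 97.2% (94.1 to 99.0), against 98.2% unthinned. Fabp2 had 468 CPM, Fabp6 280 CPM and Rbp2 37.97 CPM in the same cells, and Rbp4 4.43 CPM. The summed myeloid markers had 420.5 CPM there, 404 of them from S100a8, with Csf1r at 0, and Hoxb13 had 184 CPM. The macrophage cluster 19 of the Mettl14_cKO library had 1229 CPM of Fabp5 and 5563 CPM of Lyz2, against 5.06 CPM of Lyz2 in cluster 20.

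**Figure D4:**
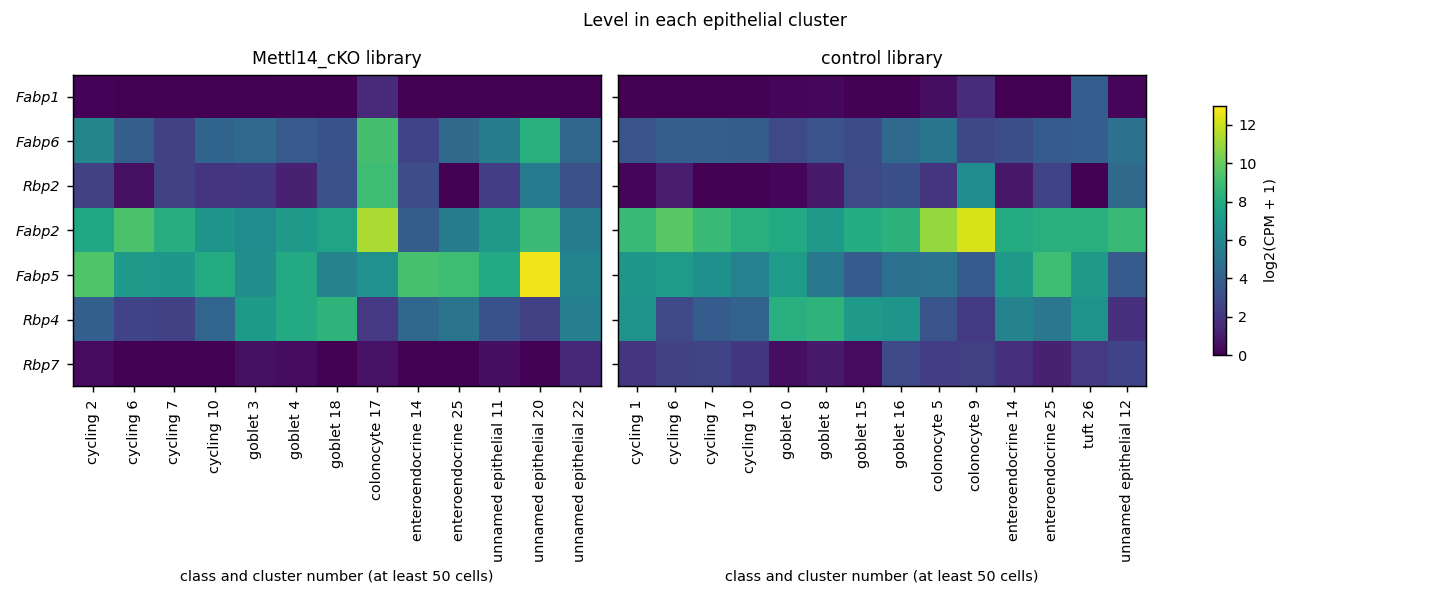
Level as log2(CPM + 1) (colour) of each gene (rows) in each epithelial cluster with at least 50 cells (columns, by class), Mettl14_cKO library at the left and control at the right. Fabp5 is brightest in cluster 20 at 6804 CPM, Fabp2 in control cluster 9 at 4727 CPM, and Fabp6 and Rbp2 in Mettl14_cKO cluster 17 at 573 and 503 CPM.

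Rbp4, the secreted carrier of retinol in plasma, was a gene of mucus-secreting goblet-like cells in both libraries. Those cells had 251 CPM (246 to 256) in the Mettl14_cKO library and 254 CPM (249 to 260) in the control, a ratio of 0.986 (0.958 to 1.02), and 83.9-fold (49.0 to 158, Mettl14_cKO) and 35.7-fold (30.8 to 41.6, control) the level of colonocyte-like cells. The sign of the ratio between the libraries turned with the setting, with log2 values between -0.63 and 0.41. The thinned share was lower in the Mettl14_cKO library, at 22.7% (21.0 to 24.5) against 32.6% (30.8 to 34.3) in the control, unthinned 54.2% (Mettl14_cKO) and 71.8% (control), with 14.5% (Mettl14_cKO) and 7.13% (control) of the UMIs in the highest 1% of cells. Rbp4 was found in 0.8% (Mettl14_cKO) and 3.93% (control) of thinned T or NK-like cells. Among Mettl14_cKO goblet-like clusters Rbp4 had 137 CPM in cluster 3, 250 in cluster 4 and 352 in cluster 18, and among control ones 292 in cluster 0, 356 in cluster 8, 129 in cluster 15 and 105 in cluster 16.

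In cycling-like cells Rbp4 had 15.8 (Mettl14_cKO) and 59.1 CPM (control), 3.74-fold lower (3.38 to 4.14), and the clusters of the class differed in it. Its thinned shares of 1.32% (Mettl14_cKO) and 6.96% (control) lay within the T or NK-like intervals, 0.0970 to 2.86 (Mettl14_cKO) and 1.59 to 7.94 (control), where the levels were 9.73 (Mettl14_cKO) and 49.6 CPM (control). The control cluster 1, in which the goblet genes Retnlb and Spdef are among the leading genes beside the cell cycle gene Pclaf, held 97.1 CPM in 1259 cells, whereas the control clusters 6 and 7 held 6.31 and 12.7 CPM. The Mettl14_cKO clusters 2 and 10 held 14.8 and 18.2 CPM. Atoh1, the transcription factor of secretory cells, had 47.0 CPM in Mettl14_cKO cluster 2 and 54.7 in cluster 10, against 202 in control cluster 1 and 12.5 in cluster 6. Under the lenient cell filter the log2 ratio in cycling-like cells was 0.68, against -1.84 with the filter used elsewhere.

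Rbp7, another cellular retinol binding protein, was rare. All epithelial-like cells held 37 UMIs in the Mettl14_cKO library (0.449 CPM, 0.316 to 0.618) and 356 in the control (3.30 CPM, 2.97 to 3.66), a 7.36-fold lower level (5.24 to 10.6). Cycling-like cells held 11 UMIs in the Mettl14_cKO library and 137 in the control. Goblet-like cells held 11 in the Mettl14_cKO library and 61 in the control, and colonocyte-like cells 2 (Mettl14_cKO) and 110 (control). The enteroendocrine-like class had 0 in the Mettl14_cKO library and 4 in the control. At this depth its order among classes of the Mettl14_cKO library was not detectable.

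**Figure D5:**
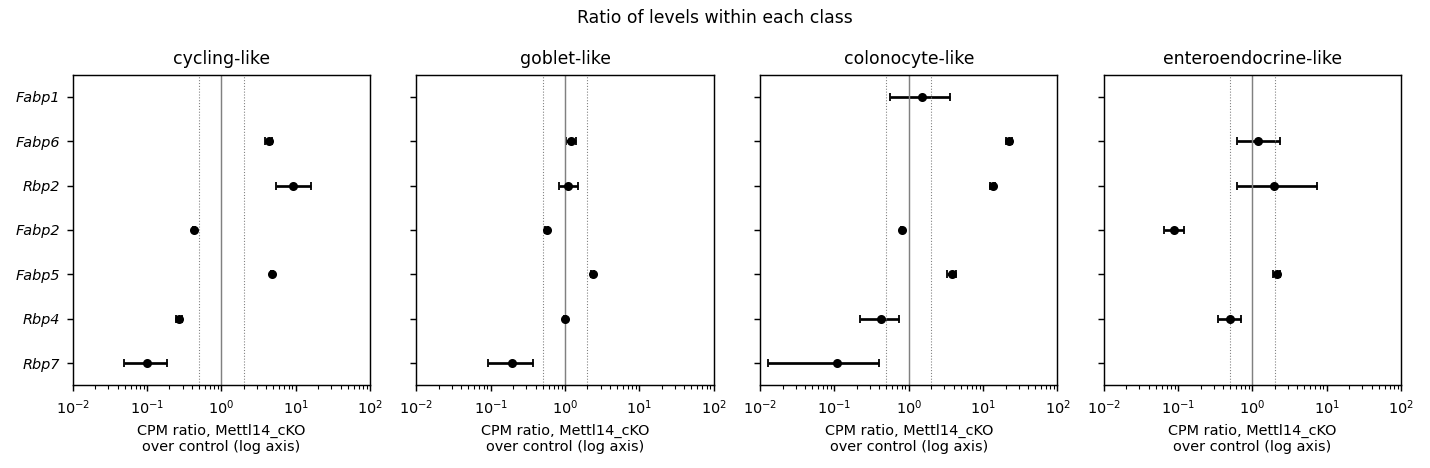
Ratio of CPM, Mettl14_cKO over control (log axis), of each gene in 4 classes, with exact intervals for counting error; dotted lines mark 2-fold, and pairs with under 10 UMIs in both libraries or 0 in either are left out. Fabp5 is right of the 2-fold line in the 4 panels, Fabp2 is left of 1 in the 4 panels, and Fabp6 and Rbp2 are farthest right in colonocyte-like cells at 22.2 and 13.4.

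Counted over 4 classes, 8 of 28 pairs of a gene and a class were at least 2-fold higher in the Mettl14_cKO library, 8 were at least 2-fold lower and 12 lay between. Many of these had few UMIs, and 12 pairs had at least 50 CPM in a library, the level at which genes were compared. In colonocyte-like cells 3 of 4 such members were higher (Fabp5, Fabp6 and Rbp2, of which Fabp5 lay under its T or NK-like level) and 0 lower, where 10.0% of all 2621 genes were higher and 8.66% lower. In cycling-like cells 1 of 3 was higher and 2 lower (background 7.38% and 5.54% of 2817 genes). The 2 were Rbp4, whose share lay within its T or NK-like interval, and Fabp2. The Fabp2 ratio is not corrected for its T or NK-like level, also lower in Mettl14_cKO, and was 0.832 (0.791 to 0.874) in control-majority cycling-like clusters. In goblet-like cells 1 of 3, Fabp5 at its T or NK-like share, was higher and 0 lower (5.78% and 7.42% of 2735). In enteroendocrine-like cells 1 of 2 was higher and 1 was lower (9.86% and 7.48% of 3234). The lower one was Fabp2, whose share was not separable from its T or NK-like share. The median log2 ratio of all genes was -0.13 in colonocyte-like, -0.10 in goblet-like, -0.02 in cycling-like and -0.01 in enteroendocrine-like cells.

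Few genes that act beside these proteins reached the level at which genes were compared. Of 28 genes of retinoid metabolism and signalling 3 had at least 50 CPM in colonocyte-like cells, with 1 higher, 1 lower and 1 between and a median log2 ratio of -0.20. Dhrs9, a dehydrogenase that oxidises retinol, had 86.5 (Mettl14_cKO) and 9.91 CPM (control), and Aldh1a1, which makes retinoic acid, 19.8 (Mettl14_cKO) and 86.7 CPM (control). Isx, the transcription factor that represses vitamin A uptake, had 47.2 (Mettl14_cKO) and 54.2 CPM (control). In goblet-like cells Ttr, the plasma partner of Rbp4, had 141 (Mettl14_cKO) and 96.9 CPM (control).

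Genes of lipid handling are given by step, and only those with at least 50 CPM in a library were compared. In colonocyte-like cells 10.0% of all genes so compared were higher and 8.66% lower. Of 19 genes of triglyceride and lipoprotein assembly 6 were compared in colonocyte-like cells. Of these 3 were higher, 0 lower and 3 between, with a median log2 ratio of 1.05. Those higher were Dgat2, which adds the last acyl chain to triglyceride (104 CPM in Mettl14_cKO, 19.2 CPM in control), Agpat2 of the same pathway (673 CPM in Mettl14_cKO, 254 CPM in control) and Apobec1, which edits Apob RNA (67.7 CPM in Mettl14_cKO, 17.9 CPM in control). Of 16 genes of fatty acid uptake and activation 4 were compared there, with 0 higher and 1 lower. That gene was Dbi, the acyl-CoA binding protein, with 1130 (Mettl14_cKO) and 2690 CPM (control). Its log2 ratio was -0.72 in cycling-like, -1.01 in goblet-like and -1.49 in enteroendocrine-like cells. Of 10 bile acid genes 4 were compared in colonocyte-like cells, with 2 lower and 0 higher. The lower were the export transporter Slc51a (44.4 CPM in Mettl14_cKO, 164 CPM in control) and the bile acid receptor Nr1h4 (54.5 CPM in Mettl14_cKO, 118 CPM in control). Abcc3, also of that list, lay between the 2-fold limits there. In enteroendocrine-like cells Abcc3 was the 1 bile acid gene compared and was higher, with a log2 ratio of 2.61. Of 17 transcription factors of enterocytes and lipid metabolism 6 were compared in colonocyte-like cells. None of these passed 2-fold, with Hnf4a at 84.2 (Mettl14_cKO) and 97.0 CPM (control). Of 14 colon markers 8 were compared in colonocyte-like cells. Of these 3 were higher, 2 lower and 3 between, with a median log2 ratio of 0.77. The higher ones were Hoxb13, the carbonic anhydrase gene Car4 (648.5 CPM in Mettl14_cKO, 145 CPM in control) and the sodium channel subunit gene Scnn1a (64.0 CPM in Mettl14_cKO, 4.97 CPM in control). The lower ones were Car1 (22790 CPM in Mettl14_cKO, 60060 CPM in control) and Slc26a3 (78.0 CPM in Mettl14_cKO, 165 CPM in control). Car1, Car4, Aqp8 and Slc26a3 of this list are also markers by which the colonocyte-like class was named. Their ratios and the median of the list are therefore not independent of that naming.

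The genes most like each member across 22 epithelial clusters of at least 50 cells of both libraries together, by Pearson correlation of log2(CPM + 1), are given as a description. The clusters share libraries and depth. Rbp4 was most like Ramp1 (0.97) and Atoh1 (0.96), followed by Slc12a8, Agr2 and Tpsg1. Fabp2 was most like Car1 (0.94) and Mep1a (0.92), followed by 4931406C07Rik, 1810065E05Rik and Higd1a. For Rbp2 the order was Slc6a8 (0.92), Mpp1, Sprr2a3, Saa1 and Ifit1bl1. For Fabp6 it was Il1rn (0.90), Clca4b, Ehd1, Hdhd3 and Plb1. Fabp5 was most like Tmem86a (0.91), B9d2, Srrd, Arl5a and Ppp1r11. Fabp1 followed the tuft cell genes Rgs13 (0.88) and Dclk1 (0.87), then Matk, Lima1 and Espn. Its highest cluster level, 15.4 CPM, rested on 3 Mettl14_cKO and 4 control UMIs in the tuft-like cluster 26, so this order leans on few UMIs. Rbp7 was under 10 CPM in each cluster, both libraries pooled, and has no such list.

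The genes lie on separate chromosomes apart from Fabp2 and Fabp5, both on chromosome 3. In GENCODE M21 (GRCm38) Rbp2 (ENSMUSG00000032454) runs from 98486115 to 98509781 on chromosome 9, plus strand, with the RefSeq start inside that span, and Fabp6 (ENSMUSG00000020405) from 43596049 to 43601540 on chromosome 11, minus strand. Fabp2 (ENSMUSG00000023057) runs from 122895072 to 122899506 and Fabp5 (ENSMUSG00000027533) from 10012548 to 10016607, both on the plus strand. Rbp4 (ENSMUSG00000024990) lies on chromosome 19 from 38116629 to 38125281, minus strand, and Rbp7 (ENSMUSG00000028996) on chromosome 4 from 149449687 to 149454978, minus strand. Fabp1 (ENSMUSG00000054422) lies on chromosome 6 from 71199827 to 71205023, plus strand. Cut into words of 60 bases, the 3' ends of the transcripts of the 7 genes shared 0% of their words with transcripts of other genes.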

How the data were processed

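Single-cell RNA counts were deposited by the authors as matrices of whole-number UMI counts per gene and cell, made with Cell Ranger 3.1.0 per the file headers. The submitters' processing notes name Cell Ranger 3.0.0 and Seurat 3. For the genome build, nothing was given in the sources used here. A cell was kept when it had 500 or more genes and its mitochondrial UMIs made up less than 25%, and cells with a Scrublet score of at least 0.25 were removed (52 Mettl14_cKO and 76 control cells). Clustering used 2000 variable genes, 30 components, 15 neighbours and Leiden resolution 1 in scanpy 1.11.5, without the 7 members and with no integration of libraries. Clusters were named from fixed marker lists. Counts were summed per class and library and given as CPM, with exact Poisson intervals, exact conditional binomial intervals for ratios and Clopper-Pearson intervals for shares. Log2 ratios used a pseudocount of 1 CPM. Genes with at least 50 CPM in 1 library and 10 UMIs were compared at a fold of 2. All members were named, with the 5 most alike genes of each and the 3 genes of each list with the highest absolute mean log2 ratio. Other genes named were chosen after their values were seen. The members and lists were chosen with earlier results of these data known. The ratio calculation was tested on simulated data.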

Additional observations from a re-analysis of the deposited data

Results flagged for a closer look

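Fabp5 was also measured in myeloid-like cells, a class not compared between the libraries above. Those cells of the Mettl14_cKO library held 1374 Fabp5 UMIs in 435 cells, or 912 CPM (864.5 to 961.7), against 5 UMIs in 10 control cells, or 186 CPM (60.4 to 434). Within the Mettl14_cKO library the macrophage cluster 19 had 1229 CPM. With 10 control cells the difference between the libraries rests on 5 UMIs, and it was not tested.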

How the results depend on the processing

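No paired analysis was possible because each genotype had 1 library. Within classes, 212 log2 ratios moved by less than their counting interval under the alternatives, 176 moved further and 4 turned a ratio that was past 2-fold to the other sign. The 4 were all of Rbp4: 0.68 in cycling-like cells under the lenient cell filter, and in colonocyte-like cells 0.14 at resolution 2, 0.53 under the strict cell filter and 0.96 after the T or NK-like level was subtracted. Their causes were not tested. The value of 0.96 is not read as a change of direction. Colonocyte-like Rbp4 lay under the T or NK-like level in both libraries, at 2.99 against 9.73 CPM in Mettl14_cKO and 7.13 against 49.6 CPM in control cells. Ratios under 2-fold also changed sign, for example the one of Rbp4 in goblet-like cells, which kept its sign in 7 of 14 settings, that of Fabp6 in 11 of 14 for goblet-like and 10 of 13 for enteroendocrine-like cells, that of Rbp2 in goblet-like cells in 12 of 14, and that of Fabp1 in colonocyte-like cells in 7 of 15. The count of gene and class pairs at least 2-fold higher was 5 under the lenient filter, against 8. The count at least 2-fold lower was 5 under the lenient filter, 5 with the mean over cells and 3 with a pseudocount of 10 CPM, against 8. The Rbp2 log2 ratio in colonocyte-like cells lay between 1.24 and 3.93, that of Fabp6 between 0.09 and 6.29, and that of Fabp5 in cycling-like cells between 0.03 and 2.66. The lowest of each came from the few Mettl14_cKO cells in control-majority clusters. That alternative, the mature colonocyte clusters and the removal of the 1% of cells with the most UMIs were chosen after seeing the data. Over all epithelial-like cells the Rbp4 log2 ratio was 0.08, against -0.97 as a mean over classes, and that of Fabp1 was -0.20, against 0.08. Depth limits Fabp1 and Rbp7, which had few UMIs in each class, and intervals leave out the variation between mice.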
